A study of Mus musculus with 6 samples.

Results

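The cytochrome P450 genes measured here are the genes whose symbol is Cyp followed by a family number, a subfamily letter and a gene number, with the bile acid and sterol synthesis enzymes Cyp7a1, Cyp7b1, Cyp8b1, Cyp27a1 and Cyp51 left out. They numbered 78 of the 19938 genes tested, and each was read by 1 probe set with a single gene symbol. Primary hepatocytes of 1 wild-type male C57BL/6J mouse aged 10 weeks had been purified by collagenase perfusion and a Percoll gradient. They received 1 nmol of control siRNA (siControl) or of siRNA against RetSat (siRetSat) by overnight lipid transfection, in medium with 25 mM glucose, and RNA was taken 48 h after the following medium change. RetSat, retinol saturase, is an enzyme that saturates a double bond of vitamin A. Each group held 3 numbered samples, separate transfections by the study's methods, with 1 Affymetrix Mouse Gene 1.0 ST array each. The labels describe cells of 1 animal, so the p-values measure the spread between transfections and not between mice. No second siRNA against RetSat was analysed here.

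P450 enzymes are haem proteins of the endoplasmic reticulum and mitochondria that insert oxygen into lipophilic molecules with electrons from a reductase partner. Families 1, 2 and 3 handle mostly drugs, toxins and arachidonic acid in the liver, family 4 hydroxylates fatty acids and eicosanoids at the chain end, and the remaining families make or clear steroids, vitamin D and retinoic acid. Many are typical of hepatocytes and are controlled by ligand-activated receptors, among them the Ah receptor (Cyp1a genes), the constitutive androstane receptor CAR (Cyp2b10), the pregnane X receptor PXR (Cyp3a11) and PPAR alpha (Cyp4a genes). In the mouse, families 2 and 3 have expanded into clusters of near-identical neighbours, so that an array probe can bind the RNA of more than 1 gene.

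The knockdown was clear on the arrays. Retsat had log2 values of 6.80, 7.04 and 7.01 in siControl and 4.62, 4.83 and 4.81 in siRetSat, a log2 difference of -2.20 (standard error 0.105, adjusted p = 0.000112 from limma) that left 21.8% of the control signal. Both arrays numbered 1 stood apart from the others of their group. On the first principal component of the deviations from the group means, which held 61.5% of that variance, they scored -19.0 and -23.6. Arrays numbered 2 scored 3.66 (siControl) and 7.26 (siRetSat), and arrays numbered 3 scored 15.4 and 16.4, so the order by number was the same in both groups. Of 12 listed hepatocyte markers 11 were measured, none of them dim in both groups, and their summed log2 level was 14.81 to 14.90 in siControl and 14.69 to 14.72 in siRetSat. Of these, Alb, which encodes albumin, had a log2 difference of 0.07. Ahsg (-0.52, adjusted p = 0.0196), Fgb (-0.42, adjusted p = 0.0409) and Tat (-0.72, adjusted p = 0.0452, all from limma) fell in siRetSat. No marker on that list was called higher at an adjusted p under 0.05. Over all genes 1.91% were called higher and 1.66% lower. The log2 differences of the 11 markers ran from -0.72 to 0.13, with a median of -0.17.

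The P450 genes did not move as a block. In siRetSat 3 of the 78 rose, namely Cyp2d26, Cyp2b10 and Cyp2f2, and 3 fell, namely Cyp2c67, Cyp3a13 and Cyp2j5, at an adjusted p under 0.05 from limma, while the other 72 did not pass. Over all 19938 genes, 1.91% were called higher and 1.66% lower by the same rule. The median log2 difference of the 78 genes was 0.05, against 0.00 for all genes tested. By the looser cutoffs that the study used, which ask for a p under 0.05 before adjustment and a rise of at least 25% or the same ratio downward, 10 P450 genes were higher (4.47% of all genes) and 5 were lower (4.58% of all genes). All 3 siRetSat values lay above all 3 siControl values for 15 P450 genes (9.33% of all genes) and below them for 6 (10.1% of all genes). In bulk RNA, fewer cells of a type and less RNA per cell cannot be told apart.

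Part of the family was dim in these cells. The 40th percentile of the gene means, a log2 value of 4.33, was taken as the upper limit of dim signals. By that definition the mean of 40% of all genes is dim, so a dim part is not particular to this family. Of the 78 P450 genes, 36 lay under the limit in both groups. Their log2 differences ran from -0.19 to 0.47, and 1 of them, Cyp2j9, passed the study's cutoffs. The calls at an adjusted p under 0.05 were all made among the other 42 genes, of which 41 were above the dim range in both groups and Cyp1a1 in siRetSat only.

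**Figure D1:**
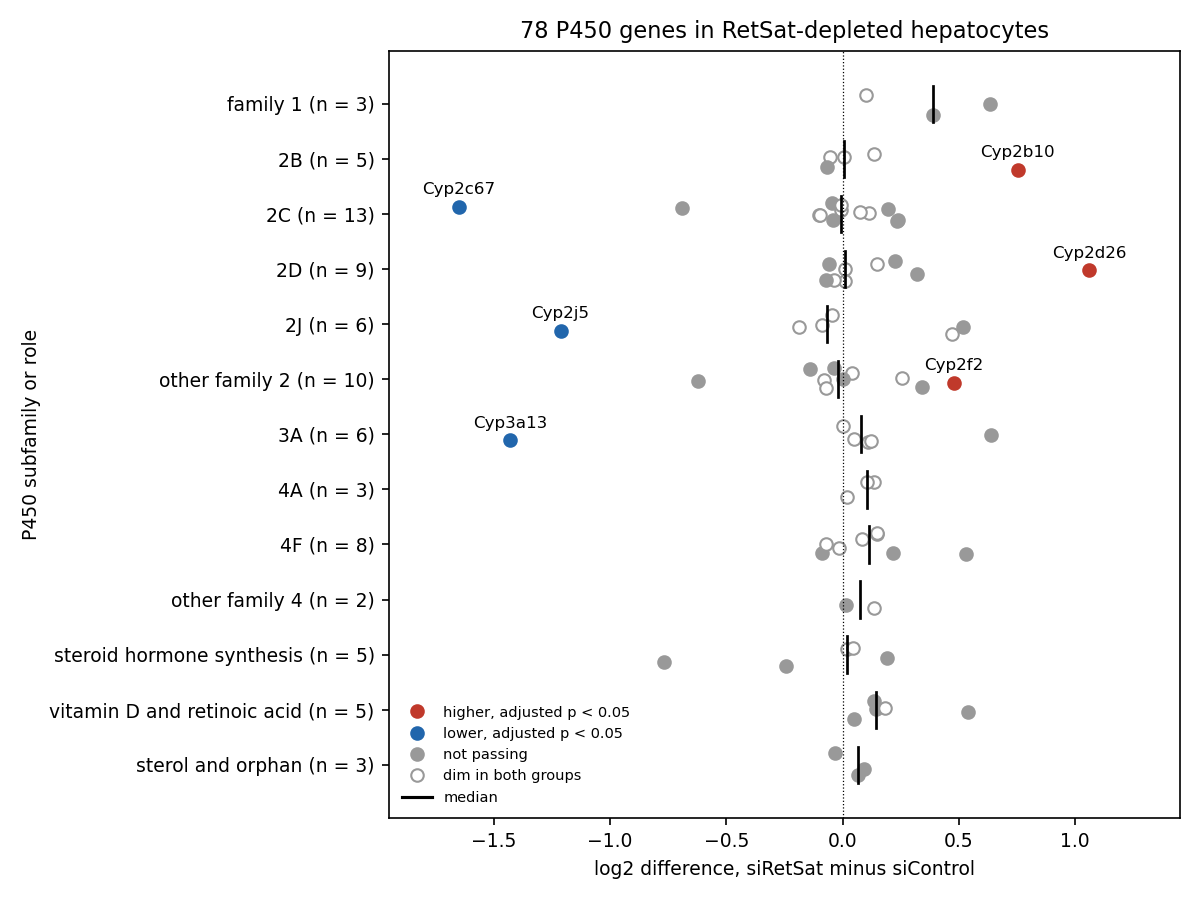
Log2 difference (siRetSat minus siControl, x axis) of each of the 78 P450 genes, with 1 point per gene, grouped by subfamily or role on the y axis, and the group's median as a vertical bar. Open points are dim in both groups, and the medians lie near 0 in most rows while single genes such as Cyp2c67 (-1.65), Cyp3a13 (-1.43), Cyp2j5 (-1.21) and Cyp2d26 (1.06) stand far from their own subfamily.

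Cyp2c67 had the largest difference of the family in either direction. It belongs to subfamily 2C, whose enzymes oxidise drugs and arachidonic acid. The siControl arrays read log2 values of 6.75, 7.20 and 7.57 and the siRetSat arrays 5.45, 5.31 and 5.81. Every siRetSat array was below every siControl array, and the mean fell from 7.17 ± 0.41 to 5.52 ± 0.26 (SD, n = 3). That is a log2 difference of -1.65 (standard error 0.211, adjusted p = 0.0056 from limma), or 31.9% of the control signal. Its neighbour Cyp2c68 had values of 5.16, 5.94 and 6.44 in siControl and 4.06, 5.57 and 5.84 in siRetSat. These overlapped, with a log2 difference of -0.69 (95% interval -1.78 to 0.40, adjusted p = 0.642 from limma). Each siRetSat value of Cyp2c68 was below the siControl value of the same number. With the replicate number as a block, Cyp2c68 was called lower (adjusted p = 0.0237 from limma), where 4.04% of all genes were. Both genes are also named by a probe set that cannot tell Cyp2c67, Cyp2c68, Cyp2c69 and Cyp2c40 apart. That probe set read 7.82, 8.06 and 7.81 in siControl and 6.80, 6.95 and 7.14 in siRetSat. In a limma fit over all 35556 probe sets it was lower by -0.93 (standard error 0.124, adjusted p = 0.0273), where 0.382% of all probe sets were called lower. The share of each of the 4 genes in it was not tested, and the Cyp2c67 probe set may likewise bind its neighbours' RNA.

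The other 11 genes of subfamily 2C had log2 differences from -0.10 to 0.24 and none passed. Cyp2c70, which hydroxylates bile acids into the muricholic acids of rodents, had the probe set of highest signal among them, though signals of different probe sets do not rank the genes by expression. Its values of 9.85, 10.04 and 10.22 in siControl overlapped those of 10.12, 10.30 and 10.41 in siRetSat, and the difference was 0.24 (95% interval -0.04 to 0.52, adjusted p = 0.45 from limma). Cyp2c50 and Cyp2c54 had differences of 0.23 and 0.20, with adjusted p-values of 0.357 and 0.435 from limma. In the fit without a block, a fall was called in this subfamily for Cyp2c67. The shared probe set that names Cyp2c67 was called lower in the fit over all probe sets. Among the settings run, Cyp2c68 was called lower only with the replicate number as a block.

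The 150 bases before the transcription start of Cyp2c67 and Cyp2c68 show how alike these neighbours are and carry a match to a letter pattern bound by HNF4, a nuclear receptor of liver cells. They are written 5′ to 3′ on the strand of the gene, from RefSeq's table for GRCm38.p6, and lie at chr19:39649043-39649192 (Cyp2c67, minus strand) and chr19:39741102-39741251 (Cyp2c68, minus strand), directly upstream of the first exon. Capitals mark CAAAGTCCA and TATAAA on either strand.
Cyp2c67: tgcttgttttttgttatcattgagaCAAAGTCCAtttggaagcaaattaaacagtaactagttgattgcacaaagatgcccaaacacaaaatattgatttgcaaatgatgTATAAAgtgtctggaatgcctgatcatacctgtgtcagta
Cyp2c68: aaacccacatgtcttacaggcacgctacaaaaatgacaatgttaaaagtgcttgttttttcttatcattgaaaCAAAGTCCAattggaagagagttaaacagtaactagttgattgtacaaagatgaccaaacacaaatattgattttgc
In both, CAAAGTCCA stands in the same stretch, from 125 to 117 bases before the annotated start of Cyp2c67 and from 77 to 69 bases before that of Cyp2c68, so the annotated starts differ in place relative to this stretch. TATAAA stands 40 to 35 bases before the Cyp2c67 start and nowhere in the Cyp2c68 window. Counted from CAAAGTCCA, the Cyp2c68 window ends before the place that TATAAA holds in Cyp2c67. Its absence therefore does not compare the genes at that place. In a global alignment of the 250 bases before each start, gaps allowed, 75.2% of the bases were matched by an identical one. Because the starts are shifted, some bases at the ends of each stretch have no counterpart in the other.

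Cyp3a13 fell to 37.1% of the control signal. Genes of subfamily 3A encode drug and steroid oxidases of liver and intestine. On the siControl arrays it read 8.98, 9.34 and 8.99 (log2), and on the siRetSat arrays 7.53, 7.67 and 7.82. No siRetSat value came within 1 log2 unit of a siControl value, and the difference was -1.43 (standard error 0.128, adjusted p = 0.00133 from limma). Cyp3a11, a main 3A enzyme of adult mouse liver and a known target of PXR, had values of 4.58, 5.12 and 5.05 in siControl and 5.37, 5.70 and 5.59 in siRetSat. All siRetSat values of Cyp3a11 were above all siControl values, but the difference of 0.64 (95% interval 0.28 to 1.00) did not pass (adjusted p = 0.0761 from limma). Whether the 2 genes' differences differ from each other was not tested. The other 4 members, Cyp3a16, Cyp3a25, Cyp3a44 and Cyp3a57, were dim in both groups, with differences from 0.00 to 0.12. The 3 probe sets shared by several 3A genes read log2 values of 2.49 to 3.70 on all arrays and none passed.

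The windows of both 3A genes are shown because their values lay on opposite sides of 0. They stand at chr5:137921620-137921769 (Cyp3a13, minus strand) and chr5:145879855-145880004 (Cyp3a11, minus strand) of GRCm38.p6, with the same meaning of capitals.
Cyp3a13: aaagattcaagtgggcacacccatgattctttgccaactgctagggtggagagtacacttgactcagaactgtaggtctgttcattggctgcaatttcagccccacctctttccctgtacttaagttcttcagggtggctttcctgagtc
Cyp3a11: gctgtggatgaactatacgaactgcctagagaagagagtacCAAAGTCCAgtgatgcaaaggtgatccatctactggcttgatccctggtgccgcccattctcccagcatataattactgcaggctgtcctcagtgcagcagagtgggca
Cyp3a11 holds CAAAGTCCA from 109 to 101 bases before its start and the Cyp3a13 window holds neither pattern. The same alignment matched 58.0% of their 250 bases, and since gaps are free to fall anywhere, unrelated sequences also reach a sizeable share by this measure.

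Subfamily 2J, whose enzymes turn arachidonic acid into epoxides, held values in both directions too. Cyp2j5, known from kidney and liver, had values of 7.46, 7.87 and 7.48 in siControl and 6.15, 6.43 and 6.59 in siRetSat. Every siRetSat array was below every siControl array, and the gene fell by 1.21 on the log2 scale (standard error 0.151, adjusted p = 0.0052 from limma), which left 43.1% of the control signal. Cyp2j6 had values of 8.73, 9.03 and 9.08 in siControl and 9.32, 9.49 and 9.58 in siRetSat. Those groups did not overlap either, in the other direction, and the difference of 0.52 (95% interval 0.24 to 0.80) missed the threshold (adjusted p = 0.0634 from limma). The dim gene Cyp2j9 had 3.49, 3.66 and 3.47 in siControl and 3.85, 4.13 and 4.05 in siRetSat, a difference of 0.47 (adjusted p = 0.0546 from limma). The remaining 3 members, Cyp2j11, Cyp2j12 and Cyp2j13, were dim, with differences from -0.19 to -0.05.

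The start regions of Cyp2j5 and Cyp2j6 are given for the same reason, at chr4:96664120-96664269 (Cyp2j5, minus strand) and chr4:96553652-96553801 (Cyp2j6, minus strand) of GRCm38.p6.
Cyp2j5: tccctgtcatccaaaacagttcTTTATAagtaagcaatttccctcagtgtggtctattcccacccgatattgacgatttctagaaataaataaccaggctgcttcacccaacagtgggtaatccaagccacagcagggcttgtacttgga
Cyp2j6: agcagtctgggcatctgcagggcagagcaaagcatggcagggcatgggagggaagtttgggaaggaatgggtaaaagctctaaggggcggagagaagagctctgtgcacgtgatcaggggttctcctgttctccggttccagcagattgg
At 49.6% of 250 bases matched in the alignment, they were the least alike of the 3 pairs compared. Cyp2j5 holds TATAAA on the opposite strand, from 128 to 123 bases before its start, and Cyp2j6 holds neither pattern.

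**Figure D2:**
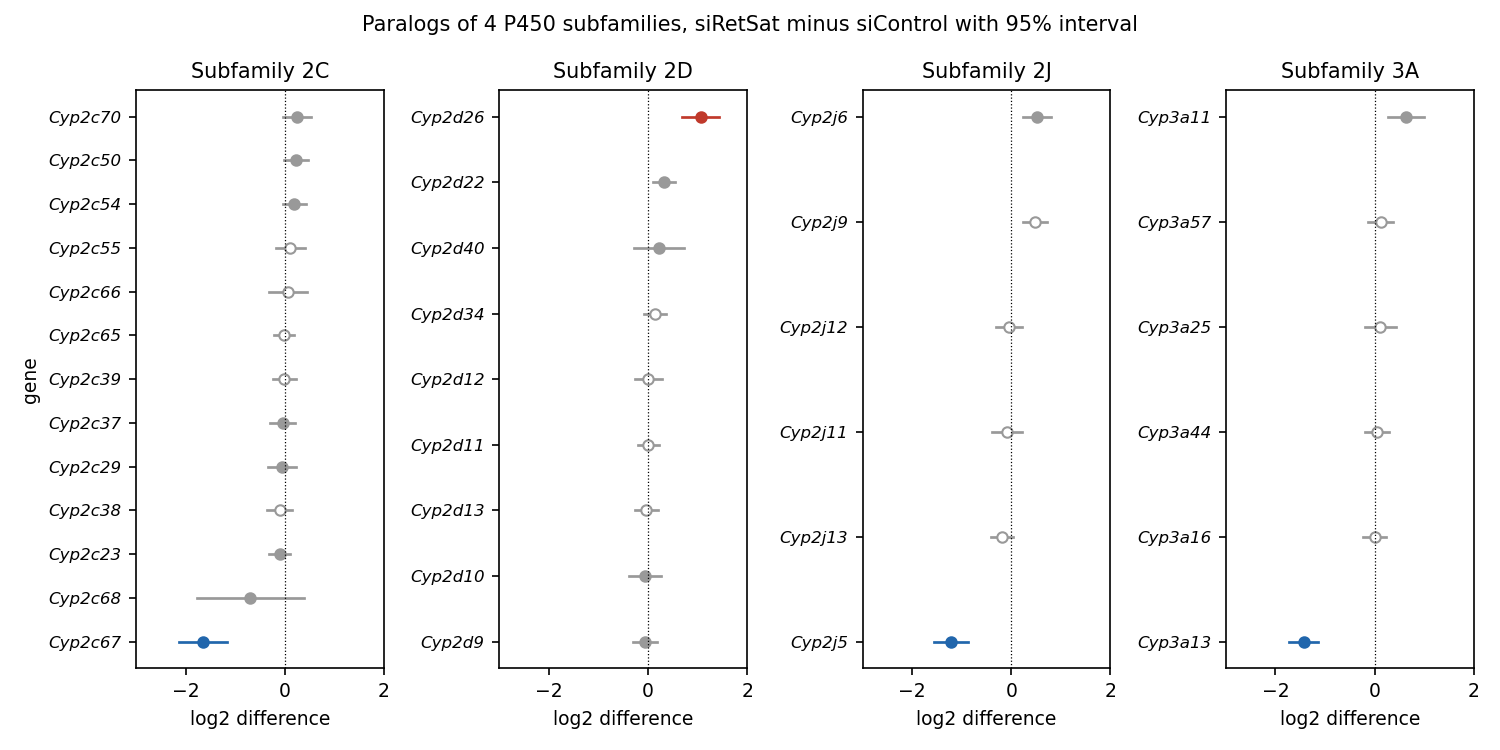
Log2 difference (siRetSat minus siControl, x axis) with its 95% interval from limma for every measured gene (y axis) of subfamilies 2C, 2D, 2J and 3A. Blue and red mark genes lower and higher at an adjusted p under 0.05 and open points are dim in both groups, and in each panel 1 gene is called (Cyp2c67, Cyp2d26, Cyp2j5 or Cyp3a13) while the others are not.

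Cyp2d26 had the largest rise. Subfamily 2D encodes drug oxidases, of which the mouse has many where humans rely on CYP2D6. Cyp2d26 read 6.82, 7.43 and 7.28 in siControl and 8.38, 8.07 and 8.26 in siRetSat. The siRetSat arrays were close to each other and all above the controls, for a log2 difference of 1.06 (standard error 0.163, adjusted p = 0.0134 from limma), which is 2.08 times the control signal. Cyp2d22, with values of 7.23, 7.50 and 7.33 in siControl and 7.74, 7.64 and 7.64 in siRetSat, was 0.32 higher, at an adjusted p of 0.153 from limma. The other 7 members had differences from -0.07 to 0.22. Cyp2d10, with the highest signal of the subfamily, had a difference of -0.06 (95% interval -0.39 to 0.27).

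Cyp2b10, the classical gene by which CAR activation is read, rose in siRetSat. It read 4.60, 4.89 and 4.81 with control siRNA and 5.73, 5.45 and 5.38 in siRetSat, a log2 difference of 0.75 (standard error 0.124, adjusted p = 0.0171 from limma) or 1.69-fold. All siRetSat arrays were above all siControl arrays. The call was lost without the second or the third siControl array, or without the second siRetSat array, with differences of 0.65 to 0.82 over the 6 omissions of 1 array. Its 4 subfamily members, Cyp2b9, Cyp2b13, Cyp2b19 and Cyp2b23, had differences from -0.07 to 0.13, and 3 of them were dim.

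Cyp2f2, which activates naphthalene in lung and liver, had the smallest called difference. It read 6.74, 6.93 and 6.98 in siControl and 7.42, 7.24 and 7.43 in siRetSat, a log2 difference of 0.48 (standard error 0.103, adjusted p = 0.045 from limma). The groups did not overlap, yet the call was lost in each of the 6 omissions of 1 array, with differences of 0.41 to 0.54. Other single genes of family 2 were Cyp2e1, the ethanol-oxidising enzyme, at -0.14 (95% interval -0.50 to 0.22), Cyp2s1 at -0.62 (adjusted p = 0.203 from limma) and Cyp2u1, a fatty acid hydroxylase, at 0.34 (adjusted p = 0.118 from limma). Cyp2s1 had 5.10, 5.91 and 5.11 in siControl against 4.93, 4.66 and 4.66 in siRetSat, so that the second siControl array set much of its difference, which was -0.36 without it. Cyp2u1 had 6.23, 6.05 and 6.04 in siControl against 6.52, 6.35 and 6.47 in siRetSat.

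A pair of subfamily 2A genes is read together. The probe set that names Cyp2a5, a coumarin-oxidising enzyme of liver, and Cyp2a4, a steroid hydroxylase nearly identical to it, read 9.13, 8.96 and 9.16 in siControl and 7.61, 7.89 and 8.04 in siRetSat. It fell by 1.24 on the log2 scale (standard error 0.132, adjusted p = 0.0145 in the limma fit over all probe sets), which left 42.4% of the control signal, and which of the 2 genes it reflects was not tested. The 2 members of the subfamily with a probe set of their own did not pass, with a median of -0.06. In all, 7 probe sets named several genes with at least 1 P450 gene among them. The 2 described fell and the other 5 did not pass, at log2 differences from -0.01 to 0.20. In the fit over all 35556 probe sets, 0.382% were called lower and 0.543% higher.

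**Figure D3:**
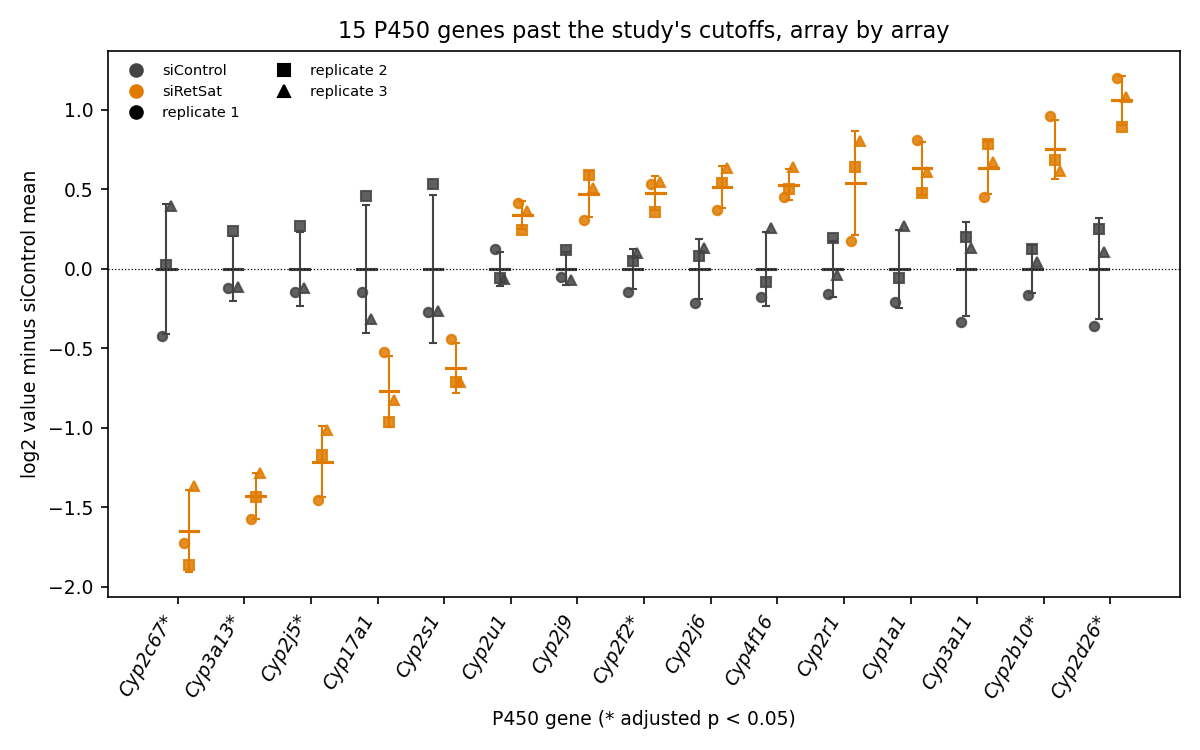
Log2 value of each array minus the gene's siControl mean (y axis) for the 15 P450 genes past the study's cutoffs (x axis), siControl in grey and siRetSat in orange, with the mean and SD of 3 arrays as bars and the replicate number as the symbol. The cutoffs were applied to the p from limma. The 5 genes on the left lie below the siControl arrays and the 10 on the right above them, with an overlap in Cyp2r1 (highest siControl value 5.89, lowest siRetSat value 5.87), and an asterisk marks the 6 genes with an adjusted p under 0.05.

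Family 1 genes, the induced targets of the Ah receptor, did not pass. Cyp1a1 had log2 values of 3.90, 4.05 and 4.38 in siControl and 4.92, 4.59 and 4.72 in siRetSat. These did not overlap, and the difference was 0.63 (95% interval 0.30 to 0.96, adjusted p = 0.0547 from limma). Cyp1a2 had 4.92, 5.24 and 5.27 in siControl and 5.06, 5.75 and 5.78 in siRetSat, with the first siRetSat array inside the control range. Its difference was 0.39 (95% interval -0.07 to 0.84), and without both arrays numbered 1 it was 0.51 (adjusted p = 0.0279 from limma). Cyp1b1 was dim, with a difference of 0.10.

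None of the 13 genes of family 4 passed, and 8 of them were dim. The fatty acid hydroxylases of subfamily 4A, which PPAR alpha induces, were dim in both groups, with differences of 0.14 for Cyp4a10, 0.02 for Cyp4a14 and 0.10 for Cyp4a31. Cyp4a12a and Cyp4a12b, whose symbols end in a further letter and are not counted among the 78, had differences of -0.06 and 0.00. Subfamily 4F, whose enzymes hydroxylate leukotrienes and long-chain fatty acids, had a median of 0.11 over 8 genes. In 3 of these the siRetSat values all lay above the siControl values, as they did in 9.33% of all genes. Cyp4f16 had 7.27, 7.37 and 7.71 in siControl and 7.90, 7.95 and 8.09 in siRetSat, a difference of 0.53 (95% interval 0.24 to 0.82, adjusted p = 0.0691 from limma). Cyp4f14 and Cyp4f13 were 0.22 and 0.15 higher, with adjusted p-values of 0.336 and 0.503 from limma. Cyp4f13 read 8.64 ± 0.03 in siControl and 8.79 ± 0.05 in siRetSat (SD, n = 3).

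Enzymes that act on retinoic acid are close in substrate to RetSat, since retinoic acid is made from retinol. Those that act on vitamin D are described with them. The retinoic acid hydroxylases Cyp26a1, Cyp26b1 and Cyp26c1 had log2 differences of 0.13, 0.14 and 0.05. Cyp26a1, which retinoic acid itself induces, read 6.58, 6.92 and 6.88 in siControl and 6.75, 6.92 and 7.11 in siRetSat, which overlap, with a 95% interval of -0.17 to 0.43 for the difference. Cyp2r1, the liver enzyme for the first step of vitamin D activation, had 5.54, 5.89 and 5.66 in siControl and 5.87, 6.34 and 6.50 in siRetSat. The groups touched at 1 array each, and the difference was 0.54 (95% interval 0.15 to 0.93, adjusted p = 0.163 from limma). Cyp27b1, the kidney enzyme for the next step, was dim, with a difference of 0.18. Cyp24a1, which degrades vitamin D, was not analysed here.

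Steroid synthesis enzymes are mainly those of gonads and adrenal glands, and none of the 5 measured passed. Cyp17a1, which mouse liver also expresses, had 5.95, 6.55 and 5.78 with control siRNA and 5.57, 5.13 and 5.27 in siRetSat. No siRetSat array reached the controls, with a difference of -0.77 (95% interval -1.24 to -0.30, adjusted p = 0.0944 from limma). Cyp21a1 had a difference of -0.24 (95% interval -0.61 to 0.12), and Cyp11a1, the enzyme that cleaves the cholesterol side chain, was dim at 0.02. Cyp19a1, aromatase, was not analysed here. The oxysterol hydroxylase Cyp39a1 read 8.89 ± 0.10 in siControl and 8.98 ± 0.06 in siRetSat (SD, n = 3), and Cyp46a1, which hydroxylates cholesterol in brain, had a difference of 0.07.

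Among P450 genes, those that kept an adjusted p under 0.05 in all 6 omissions of 1 array were Cyp2c67, Cyp3a13, Cyp2j5 and Cyp2d26. Leaving out both arrays numbered 2 removed all calls among P450 genes (15 genes were called in all). Leaving out both numbered 3 kept the 3 falls (0.201% of all genes under this setting) and no rise (0.356% of all genes). Without both arrays numbered 1, which stand apart, 7 P450 genes were higher (2.19% of all genes under this setting) and 3 were lower (1.93% of all genes). The 3 lower genes were again Cyp2c67, Cyp3a13 and Cyp2j5, and the 7 higher genes were Cyp1a2, Cyp2b10, Cyp2d26, Cyp2j6, Cyp2j9, Cyp2r1 and Cyp3a11. The call for Cyp2f2 was not among them.

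**Figure D4:**
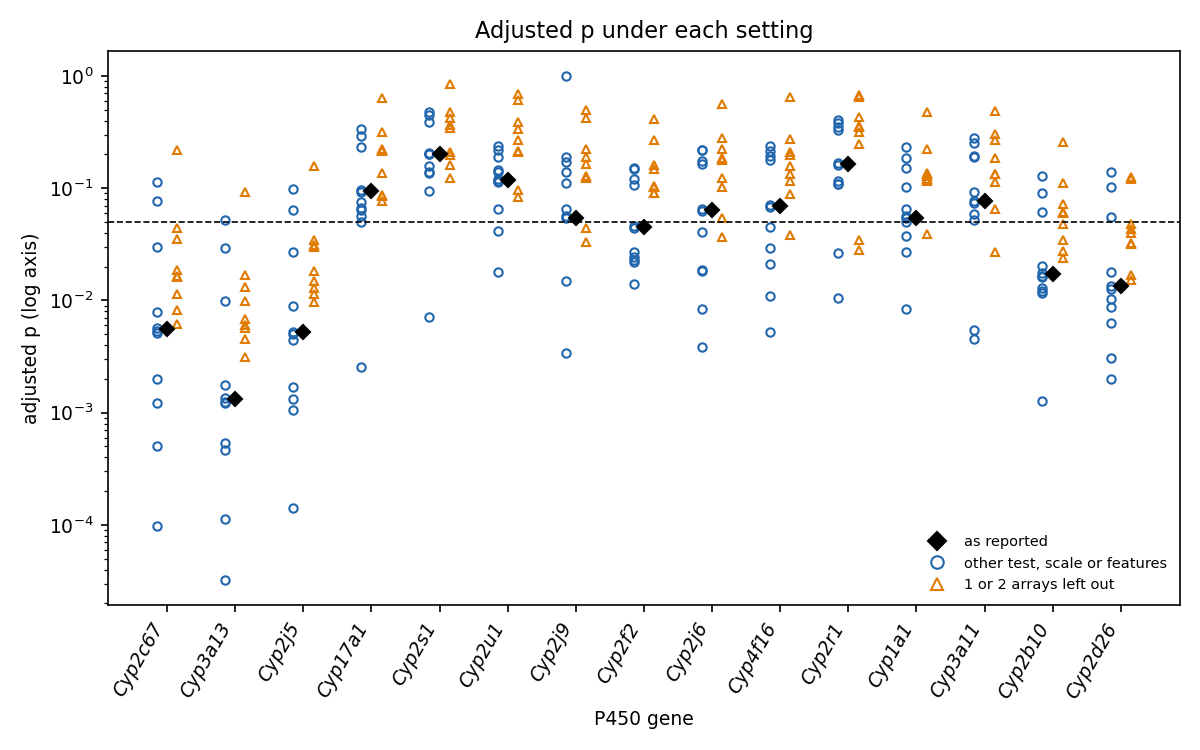
Adjusted p (y axis, log scale) of the 15 P450 genes past the study's cutoffs (x axis), as reported (diamond), under another test, scale or set of features (circles) and with 1 or 2 arrays left out (triangles). The cutoffs that chose the genes were applied to the p from limma. The dashed line is 0.05, and the diamonds of Cyp2c67, Cyp3a13, Cyp2j5, Cyp2d26, Cyp2b10 and Cyp2f2 lie under it while each of these genes has settings above it.

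RNA was measured for 7 of 10 listed electron donors and membrane partners of P450 enzymes, and none of the 7 passed, at log2 differences from -0.31 to 0.27. Cytochrome b5 (Cyb5a) had a difference of 0.02, and the main reductase, Por, was not analysed here. Of 12 measured genes of haem synthesis and breakdown 2 rose, namely Cpox (0.48, adjusted p = 0.0204 from limma), a late enzyme of haem synthesis, and Blvrb (0.41, adjusted p = 0.0408 from limma), a biliverdin reductase. Alas1, the first enzyme of the pathway, had a difference of -0.07. The median of that list was 0.06, beside 0.00 for all genes tested, of which 1.91% were called higher and 1.66% lower.

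Of 30 measured receptors and transcription factors known to control P450 genes, 1 passed. Over all genes 1.91% were called higher and 1.66% lower, so 1 call among 30 genes is near the share over all genes. Onecut1, a liver transcription factor also called HNF6, had a log2 value of 6.48 ± 0.15 in siControl and 5.23 ± 0.20 in siRetSat (SD, n = 3), with no overlap between the arrays. It fell to 42.1% of the control signal (adjusted p = 0.00249 from limma). Ahr, the Ah receptor, was 0.42 lower at an adjusted p of 0.0579 from limma. PXR (Nr1i2, -0.01), PPAR alpha (Ppara, -0.01), HNF4 alpha (Hnf4a, 0.10) and CAR (Nr1i3, 0.07, dim) did not pass.

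Other known targets of these receptors were read beside the P450 genes. The shares called over all genes were 1.91% higher and 1.66% lower. Of 11 measured CAR and PXR targets outside the family 3 rose and none fell. They were the drug exporters Abcb1a (1.31, adjusted p = 0.00207 from limma) and Abcc2 (0.51, adjusted p = 0.0195 from limma) and the sulfotransferase Sult1d1 (1.16, adjusted p = 0.0115 from limma). The median of that list was 0.19. Of 4 measured Ah receptor targets 1 rose, the quinone reductase Nqo1 (0.95, adjusted p = 0.0209 from limma). Of 13 measured PPAR alpha targets Vnn1, a pantetheinase, rose (1.31), and the fatty acid oxidation genes Cpt1a (-0.52) and Slc25a20 (-0.63) fell, with a list median of -0.14.

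Other gene groups were read on the same arrays, where 1.91% of all genes were called higher and 1.66% lower. Of 22 measured type I interferon response genes 18 rose and none fell, with a median log2 difference of 1.02 and Ifit3 at 4.06. Of 14 macrophage markers Cd14 rose (0.59), none fell, and 9 were dim in both groups. Their median log2 difference was 0.09. Their summed log2 level was 11.29 to 11.44 in siControl and 11.72 to 11.81 in siRetSat, most of it the signal of Cd68, which read 11.03 to 11.24 and 11.49 to 11.59 and did not pass (0.40, adjusted p = 0.0563 from limma). Of 12 stellate cell and fibroblast markers Acta2 (-2.403) and Tagln (-1.46) fell and none rose. The median log2 difference of that list was 0.045, and others lay above 0, such as Col1a1 (0.70, adjusted p = 0.531 from limma). The summed level was 12.82 to 12.87 in siControl and 12.44 to 12.61 in siRetSat. Most of it was the signal of Vim, with means of 12.48 and 12.36, and of Acta2, with means of 10.09 and 7.68. None of 9 endothelial markers passed, and of 5 bile duct markers Sox9 rose (0.45). The part of any of these in the P450 differences was not tested.

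Sequence patterns were counted in the 250 bases before the start of the 61 P450 genes that the promoter table held. These genes had 69 windows, and a gene was counted if any of its windows matched. The share over all is of single windows, so the units are unlike. CAAAGTCCA, on either strand, stood in 6 of the 61 P450 genes (9.84%), against 0.384% of all 32851 windows. The 6 were Cyp2c65, Cyp2c67, Cyp2c68, Cyp2c70, Cyp3a11 and Cyp3a16, of which Cyp2c67 was called lower and the others were not called. TATAAA stood in 22 P450 genes (36.1%) against 12.4% of all windows, and TTGCNNAA, a C/EBP pattern, in 12 (19.7%) against 9.56%. GCGTG, the Ah receptor core, stood in 14 (23.0%) against 28.2%, and TTCNNNGAA, a STAT pattern, in 4 (6.56%) against 7.02%. Near-identical paralogs share such stretches, so these genes are not independent, and a match is a description of the letters and not of binding.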

How the data were processed

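RNA of 6 samples, 3 with control siRNA and 3 with siRNA against RetSat, was profiled on Affymetrix Mouse Gene 1.0 ST arrays. Per the file headers and values, what the authors deposited are normalized log2 values of 35556 probe sets, made with RMA and Partek 6.6 according to the submitters' processing notes. The array annotation release is not given in the sources used here. Array medians were 4.29 to 4.50, and the number of arrays limits the precision. No columns were left out. Of the probe sets, 21789 had 1 symbol in the platform annotation, 1621 several and 12146 none, and symbols were updated through RefSeq (GRCm38.p6). The brightest single-symbol probe set of each of 19938 genes was used. No build is given for the arrays, so coordinates are those of RefSeq's promoter table alone.

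siRetSat was compared with siControl by limma 3.58.1 in R 4.3.3 (lmFit, eBayes, no covariate), two-sided, and p-values were adjusted by Benjamini-Hochberg across the 19938 genes, with 0.05 as the threshold. Probe sets with several symbols were tested in a fit over all 35556 probe sets, chosen after seeing the data. The limma fit over genes was first tested on simulated data with independent noise on each array. The fit over all probe sets was not tested in that way. Alternatives were a replicate block, the methods' t-test, removal of dim genes, a trended variance prior, quantile normalization again, median centring, background subtraction, the mean or dimmest probe set, array weights, and omission of 1 array or of both arrays of a number. The members, the gene lists and the tests were chosen with earlier results of these data known. Named P450 genes were those past the threshold, the 8 largest positive and 8 largest negative differences among genes with no overlap between groups, the brightest gene of each subfamily with 3 or more members, and a set of genes of known role. Other members, such as Cyp2u1, Cyp2c68, Cyp2d22 and the remaining genes of subfamilies 2B, 2J and 3A, were named after their values were seen. From each other list, members past the threshold and further genes of known role were named. Promoter windows were aligned with Biopython's global aligner. Plots used Python 3.11.15 and matplotlib 3.10.9.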

Additional observations from a re-analysis of the deposited data

How the results depend on the processing

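Of the 6 calls at an adjusted p under 0.05, none held under every setting run. As reported, 1.91% of all genes were called higher and 1.66% lower. Brackets give the same share of all features tested under each other setting. The 3 higher P450 genes became 0 by the methods' t-test (0.502%), 0 with background subtraction (1.11%) and 0 over all probe sets (0.543%). There were 6 with a variance trend (2.68%), 6 without dim genes (4.13%), 5 with quantile normalization again (2.53%) and 12 with array weights (7.31%). When 1 array or both arrays of a number were left out, the count ranged from 0 to 7 (0.0502% to 2.19%). The 3 lower genes became 0 by the methods' t-test (0.481%), 1 (Cyp3a13) with background subtraction (1.12%) and 5 with array weights (7.26%). Over the omissions they ranged from 0 to 3 (0.0251% to 1.93%). At the study's cutoffs the methods' t-test gave 9 higher and 4 lower genes. Median centring removed the call for Cyp2f2. The median log2 difference of the 78 genes was 0.0 with background subtraction and within the spread of the arrays otherwise. Background subtraction took off the 5th percentile of each array and held values at a floor of 16 on the linear scale. Genes at that floor on all arrays have a difference of 0 by construction, as Cyp11a1, Cyp1b1 and Cyp27b1 had. The cause of the other changes was not tested. With the replicate number as a block, 10 were higher (3.69% of all genes) and 5 lower (4.04%), the reported 6 among them, and Cyp2c68 was called lower (adjusted p = 0.0237 from limma). Deviations of same-numbered arrays correlated at 0.55, 0.04 and 0.54, and their order on the first principal component was the same in both groups. The labels do not say that the numbers pair the samples, so the fit as reported used no block. An effect shared by same-numbered arrays therefore stays in its error. Under at least 1 setting 32 of the 78 P450 genes changed sign, none of them past the study's cutoffs or the adjusted threshold, and 12 of these are among the 48 P450 genes named by the rule or with their differences. With array weights Cyp11a1 was -0.0085, Cyp1b1 -0.0198 and Cyp2b23 0.0803, and with median centring Cyp2b9 was -0.01. Over the omissions Cyp11a1 ranged from -0.07 to 0.10, Cyp1b1 from -0.0083 to 0.20, Cyp2b23 from -0.185 to 0.085, Cyp2b9 from -0.10 to 0.10, Cyp2j11 from -0.18 to 0.045, Cyp2j12 from -0.14 to 0.05, Cyp3a44 from -0.0117 to 0.13, Cyp2d10 from -0.17 to 0.06, Cyp2e1 from -0.28 to 0.10, Cyp46a1 from -0.02 to 0.13, Cyp4a10 from -0.04 to 0.25 and Cyp4a14 from -0.18 to 0.20. Dim genes have little signal over background, which limits what can be seen of them.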
